A study of Mus musculus with 2 samples.

Results

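The citric acid cycle genes examined here are Cs, Idh3a, Idh3g, Ogdh, Dlst, Suclg1, Sucla2, Fh1 and Mdh2. They were chosen by symbol, as nuclear genes for mitochondrial enzymes on both sides of succinyl-CoA, with earlier results of these data known. They are 9 of the 43346 Ensembl genes in the tables. The source was erythroblasts, red cell precursors that still have a nucleus, taken from the liver of mouse embryos at day 14.5 as cells that carry the erythroid antigen Ter119. Embryos of both sexes were pooled, and poly(A) RNA was read from both ends of each fragment. There was 1 group of 2 libraries, numbered as the biological replicates in the labels and called library 1 and library 2. Their biosample entries differ and their donor entry is the same, so part of what separates them may be technical. The labels name no strain, genotype or treatment, and with no second condition the comparisons are between genes and between the libraries.

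The citric acid cycle oxidises acetyl groups in the mitochondrial matrix and passes the electrons to the respiratory chain. In erythroid cells it has a second outlet, because succinyl-CoA, the product of the 2-oxoglutarate dehydrogenase complex, is joined to glycine by 5-aminolevulinate synthase in the first step of heme synthesis. Succinyl-CoA ligase, which interconverts succinyl-CoA and succinate, stands at that branch.

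Library 1 held 51190555 expected counts and library 2 held 44256287. Levels are given as TPM, transcripts per 1000000 after correction for length, and globin genes took 86.0% of TPM in library 1 and 84.4% in library 2. All 7 erythroblast markers reported, among them Slc4a1, Klf1 and Gata1, reached 1 TPM in both libraries and summed to 1381 and 1687 TPM. Markers of other cells were lower. They summed to 15.6 and 16.5 TPM for 8 hepatocyte markers, 8.40 and 13.0 TPM for 6 macrophage markers, 8.94 and 10.9 TPM for 4 neutrophil markers, and 10.9 and 13.9 TPM for 4 megakaryocyte markers. Of these, 3 of 8, 2 of 6, 3 of 4 and 2 of 4 reached 1 TPM in both libraries, Serpina1b and Ly6g had no counts, and the leukocyte marker Ptprc had 0.02 and 0.05 TPM. The enzymes of the cycle are used by all these cell types, and the part of such cells in the levels below was not tested. In bulk RNA, a difference in cell makeup and a difference in RNA per cell cannot be told apart.

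All 9 genes were detected, with at least 1 TPM in both libraries, which 20.0% of 21474 protein-coding genes reached. Because they were chosen with earlier results known, this count describes the chosen genes and not the cycle as a whole. Of 7 other genes of the cycle, 5 were detected. At 0.5 TPM the count was again 9, against 24.8% of protein-coding genes, and at 5 TPM it was 4, namely Mdh2, Ogdh, Dlst and Idh3g, against 9.23%. Their counts lay between 131 and 6607. The median of the 9 mean levels was 3.17 ± 1.52 TPM (SD over the medians of 2 libraries), and the median of the 4296 detected protein-coding genes was 5.02 TPM. The 9 genes thus fell on both sides of that median, with 4 above and 5 below.

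Entry into the cycle was represented by Cs and the isocitrate dehydrogenase genes. Cs encodes citrate synthase, which joins acetyl-CoA to oxaloacetate (chr10:128337734-128362479, + strand, mm10). Its level was 1.89 TPM in library 1, from 498 counts, and 3.09 TPM in library 2, from 633 counts. Of the 31-base words of Cs, 4.33% also occur in its paralog Csl, to which no counts were assigned in either library.

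Idh3a encodes the catalytic subunit of the NAD-dependent isocitrate dehydrogenase, and Idh3g a regulatory subunit of the same enzyme. Idh3a (chr9:54586334-54604661, +) had 1.07 and 1.14 TPM, from 237 and 196 counts, the lowest mean level of the 9 genes. Idh3g (chrX:73778963-73786897, −) had 5.15 and 6.46 TPM, from 278 and 364 counts. By TPM over all transcripts the 2 libraries therefore placed Idh3g above Idh3a, with no overlap of their ranges. With protein-coding transcripts alone Idh3g had 1.06 and 3.13 TPM and Idh3a again 1.07 and 1.14 TPM, so the ranges then overlapped.

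Of the complex that makes succinyl-CoA, Ogdh and Dlst were among the more abundant of the 9 genes, whereas Dld, a further component that is not one of the 9, had 0.43 and 0.44 TPM. Ogdh encodes the 2-oxoglutarate decarboxylase component of the complex (chr11:6291633-6356642, +) and had 13.5 and 22.4 TPM, from 5048 and 6607 counts. Dlst encodes the dihydrolipoyl succinyltransferase that hands the succinyl group to coenzyme A (chr12:85110833-85134845, +) and had 14.8 and 12.7 TPM, from 3803 and 2537 counts. Ogdh was lower in library 1 than in library 2 whereas Dlst was higher in library 1, and the ranges of the pair overlap.

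Succinyl-CoA ligase is built from an alpha subunit, encoded by Suclg1, and either an ATP-forming beta subunit from Sucla2 or a GTP-forming one from Suclg2. Suclg1 (chr6:73248382-73276911, +) had 2.09 and 4.24 TPM, from 143 and 265 counts. Sucla2 (chr14:73525319-73596142, +) had 1.15 and 1.22 TPM, from 149 and 131 counts. By TPM over all transcripts Suclg1 was above Sucla2 in both libraries, and its 2 values lay further apart. With protein-coding transcripts alone Suclg1 had 0.56 TPM in library 1 and 1.58 TPM in library 2. Sucla2 then had 1.03 and 1.22 TPM, so Suclg1 was the lower of the pair in library 1.

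Beyond succinate, Fh1 encodes fumarate hydratase and Mdh2 the mitochondrial malate dehydrogenase that regenerates oxaloacetate. Fh1 (chr1:175600374-175625635, −) had 1.02 and 1.37 TPM, from 248 and 256 counts. Of the 9 genes, Cs, Sucla2 and Fh1 each overlap 1 other annotated gene, and no strand setting of the counting is known, so reads of an overlap could belong to either gene and these 3 levels are uncertain to that extent. Mdh2 (chr5:135778480-135790398, +) had 40.9 and 55.4 TPM, from 3337 and 3749 counts. Mdh2 was the highest of the 9 genes in both libraries, and Fh1 was near the detection limit in both.

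In the order of mean level, Mdh2 (48.1 ± 10.2 TPM, SD, n = 2 here and below) was followed by Ogdh (18.0 ± 6.28), Dlst (13.7 ± 1.51), Idh3g (5.81 ± 0.926), Suclg1 (3.17 ± 1.52), Cs (2.49 ± 0.849), Fh1 (1.20 ± 0.247), Sucla2 (1.19 ± 0.0495) and Idh3a (1.11 ± 0.0495). Of the 8 neighbouring pairs in that order, 5 had ranges that did not overlap, though Sucla2 and Idh3a only by 1.15 against 1.14 TPM. Ogdh and Dlst, Suclg1 and Cs, and Fh1 and Sucla2 were not separated. The 3 highest genes held 84.8% of the summed level of the 9 genes in library 1 and 83.8% in library 2. Mean levels spanned 43.5-fold between Mdh2 and Idh3a, and Mdh2 stood at percentile 91.1 of the detected protein-coding genes, against percentile 0.815 for Idh3a.

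**Figure D1:**
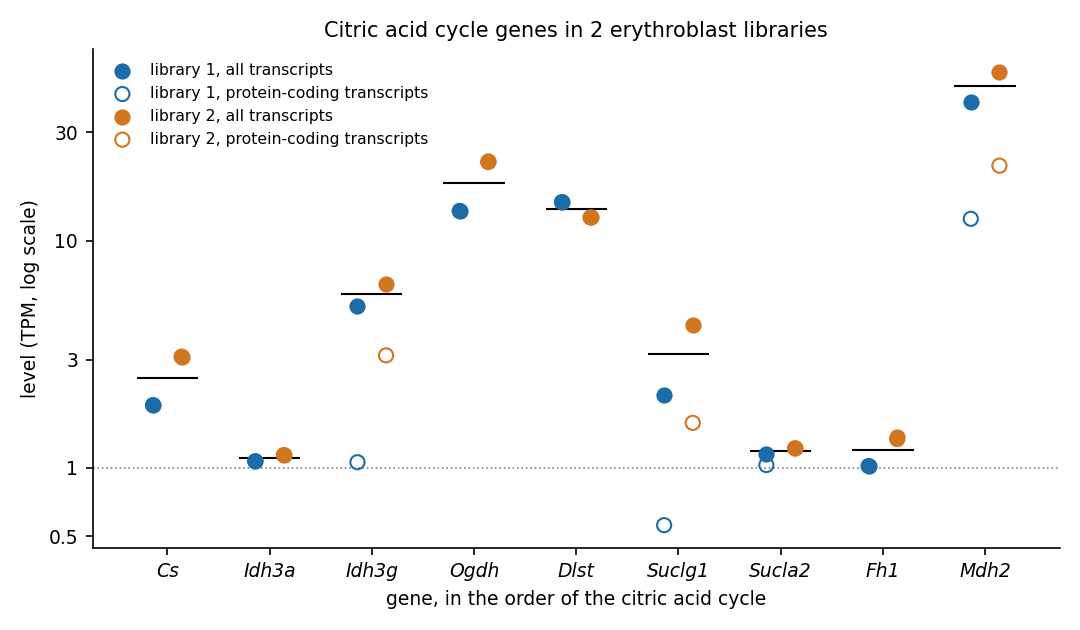
Level of the 9 citric acid cycle genes in TPM on a log axis, in the order of the cycle, with library 1 in blue, library 2 in orange and a bar at the mean. Filled points sum all transcripts and open points, which show only where they differ, sum protein-coding transcripts. Mdh2 is highest at 40.9 and 55.4 TPM, and Idh3a, Sucla2 and Fh1 lie just above the dotted line at 1 TPM.

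Counts do not show which transcript they came from, and the deposited tables divide each gene's TPM among its annotated transcripts. The division is an estimate wherever transcripts share exons. Of the 9 genes, 3 (Cs, Idh3a and Dlst) have 1 transcript in the annotation used. Of the 40 transcripts in all, 38 had the same length in the later annotation from which the structures and sequences below are taken. The sequences shown are those that tell the transcripts of Ogdh and Mdh2 apart, which have the most counts among the genes with several transcripts.

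Ogdh has 2 alternative coding exons at the same place in the transcript, 103 bases at chr11:6316978-6317080 and 91 bases at chr11:6316765-6316855 (+, mm10). They differ in length by 12 bases, and 40 of the first 91 bases are identical when they are laid side by side from the 5′ end without gaps. In human OGDH, splice forms that differ in this stretch are known to differ in their sensitivity to calcium. The exons are shown in capitals, with 12 bases of the shared neighbouring exons in lower case.
Ogdh exon of 103 bases: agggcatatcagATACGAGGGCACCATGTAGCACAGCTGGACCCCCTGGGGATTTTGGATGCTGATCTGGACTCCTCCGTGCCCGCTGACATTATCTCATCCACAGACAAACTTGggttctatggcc
Ogdh exon of 91 bases: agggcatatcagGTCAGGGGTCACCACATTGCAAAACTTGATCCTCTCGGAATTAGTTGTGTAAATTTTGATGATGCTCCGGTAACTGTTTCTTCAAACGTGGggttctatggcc

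Transcripts with the 103-base exon made up most of the full-length Ogdh RNA. They held 12.6 and 18.8 TPM, which was 97.4% of the full-length TPM in library 1 and 86.7% in library 2. Transcripts with the 91-base exon held 0.33 and 2.89 TPM, or 2.56% and 13.3%. Their expected counts were 128 in library 1 and 875 in library 2, and the longer exon form led in both libraries. The 103-base exon occurs in Ogdh-204 and Ogdh-201, which share their coding exons and differ in the first, non-coding exon. Ogdh-204 held 61.1% and 38.7% of the gene's TPM and Ogdh-201 held 31.8% and 45.2%, so the leading transcript was not the same in the 2 libraries.

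Mdh2 was divided among a protein-coding transcript, 2 transcripts with retained intron sequence and 1 annotated as a target of nonsense-mediated decay, the pathway that degrades messages with an early stop. Mdh2-201, the coding form, had 12.5 TPM in library 1 and 21.4 TPM in library 2, which was 30.6% and 38.7% of the gene's TPM. Mdh2-202, which carries the first 347 of the 1661 bases of intron 3, had 25.4 and 14.8 TPM, or 62.2% and 26.8%. Mdh2-204, which carries the first 279 of the 710 bases of intron 2, was assigned 0 counts in library 1 and 330 in library 2, or 0% and 19.9% of TPM. Mdh2-203, which skips exon 2, had 2.95 and 8.10 TPM, or 7.22% and 14.6%. By TPM the coding form was the largest only in library 2, and the shares of the 2 retained-intron forms differed most between the libraries. By expected counts, with no length correction, the coding form was the largest in both, with 1606 counts in library 1 against 1451 for Mdh2-202, and 2152 in library 2 against 665. The lines below show the 40 bases at the end of the shared exon in lower case and the 40 bases that follow in capitals, which are exon 4 in the spliced form (chr5:135785929-135785968), intron 3 in Mdh2-202 (chr5:135784268-135784307) and intron 2 in Mdh2-204 (chr5:135783474-135783513), all on the + strand of mm10.
Mdh2-201, exon 3 to exon 4: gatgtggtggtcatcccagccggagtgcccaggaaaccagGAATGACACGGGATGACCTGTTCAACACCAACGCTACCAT
Mdh2-202, exon 3 to intron 3: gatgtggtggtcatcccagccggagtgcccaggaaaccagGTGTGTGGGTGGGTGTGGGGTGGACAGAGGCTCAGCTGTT
Mdh2-204, exon 2 to intron 2: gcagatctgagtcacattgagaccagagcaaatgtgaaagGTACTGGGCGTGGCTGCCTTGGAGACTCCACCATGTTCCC

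The other genes with several transcripts fell into 2 kinds. Fh1 and Sucla2 were almost wholly protein-coding, with 100% and 97.9% of TPM for Fh1 and 89.1% and 100% for Sucla2. Idh3g and Suclg1 were mostly not. The coding transcript of Idh3g had 1.06 TPM in library 1 and 3.13 TPM in library 2, or 20.6% and 48.5% of the gene's TPM, while the 395-base processed transcript Idh3g-207 held 51.4% and 46.1%. The coding transcript of Suclg1 had 0.56 and 1.58 TPM, or 27.0% and 37.3%. TPM favours short transcripts for a given count, and by expected counts the coding shares were higher, at 44.3% and 78.2% for Idh3g, 53.1% and 62.9% for Suclg1, and 48.1% and 57.4% for Mdh2.

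With protein-coding transcripts alone, the order of the 9 genes was Ogdh (17.9 ± 6.13 TPM), Mdh2 (17.0 ± 6.31), Dlst (13.7 ± 1.51), Cs, Idh3g, Fh1, Sucla2, Idh3a and Suclg1 (1.07 ± 0.721). On that scale 8 of the 9 genes reached 1 TPM in both libraries, and the median was 2.10 TPM. Mdh2 no longer stood above Ogdh, and Suclg1 moved to the last place.

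**Figure D2:**
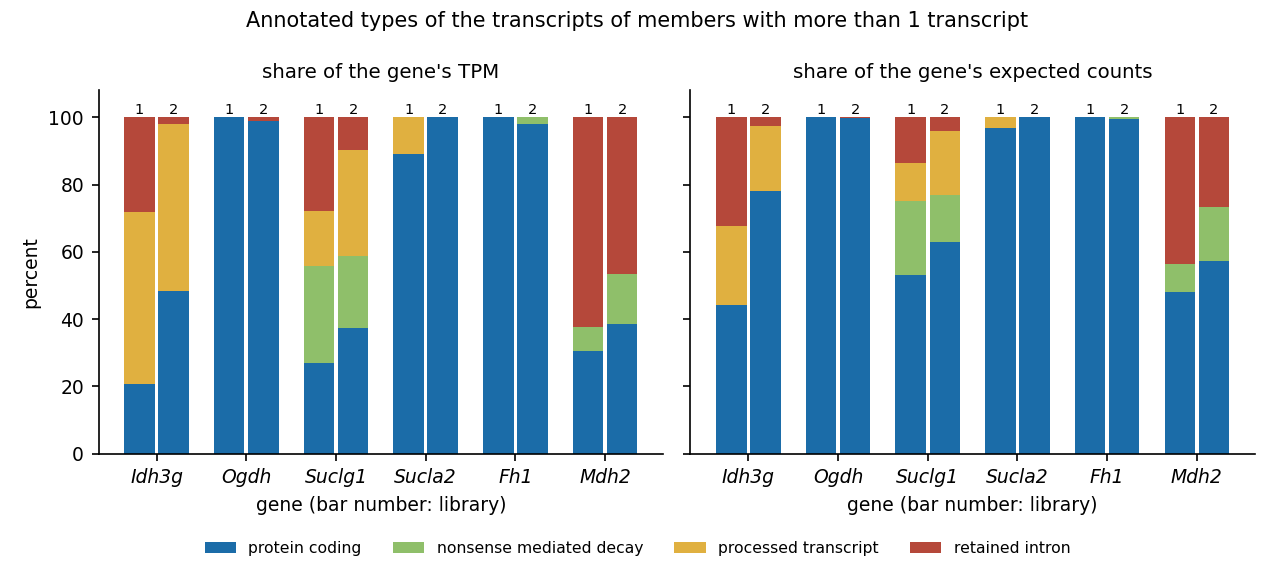
Share of each gene's TPM (left) and expected counts (right) by annotated transcript type, in percent, for the 6 genes with more than 1 transcript; the number above a bar is the library. Ogdh, Fh1 and Sucla2 are almost all protein-coding (blue), and Idh3g, Suclg1 and Mdh2 are under 50% protein-coding by TPM in both libraries.

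Ratios within an enzyme place its subunits against each other in the same library. The ATP-forming Sucla2 was 2.80 times the GTP-forming Suclg2 in library 1 and 2.90 times in library 2 (2.85 ± 0.0706, SD over the libraries). Suclg2 had only 0.41 and 0.42 TPM, from 86 and 69 counts, and Sucla2 rested on 149 and 131 counts. Counting error alone spans about 16.4% to either side of the Sucla2 count in library 1 and 17.5% in library 2. The SD is smaller than that and understates the uncertainty of the ratio. From counts with no length correction the ratio was 1.73 and 1.90. Suclg1, the shared alpha subunit, was 1.34 and 2.59 times the sum of the beta subunits. With coding transcripts alone that ratio was 0.389 and 0.963, so the alpha subunit lay above the beta sum or below it according to which transcripts were summed. Idh3a was 0.208 and 0.176 times Idh3g, and 1.01 and 0.364 times with coding transcripts alone.

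Dlst was 1.09 times Ogdh in library 1 and 0.565 times in library 2, so the order of the pair by TPM turned between the libraries. With coding transcripts alone the ratio was 1.09 and 0.570. By CPM, which is not corrected for length, it was 0.753 and 0.384, below 1 in both libraries. The sum of Fh1 and Mdh2, downstream of succinate, was 1.48 and 1.62 times the sum of Ogdh and Dlst. It was 0.477 and 0.653 times with coding transcripts alone, which turned the direction in both libraries. Over all transcripts Fh1 had only 1.02 and 1.37 TPM, against 40.9 and 55.4 TPM for Mdh2. The sum was thus nearly all Mdh2 and does not describe Fh1.

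**Figure D3:**
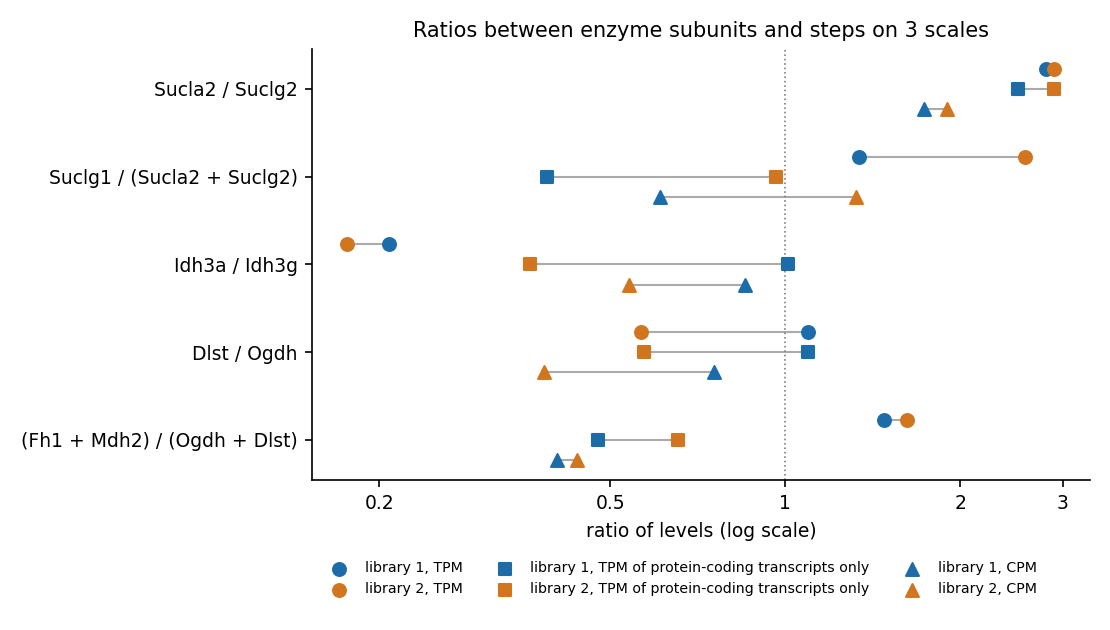
Ratios between subunits and steps on a log axis, with library 1 in blue and library 2 in orange, joined by a line; circles are TPM, squares TPM of protein-coding transcripts and triangles CPM, which is not corrected for length. Sucla2 over Suclg2 stays above 1 on all 3 scales, and Suclg1 over the beta subunits and the downstream sum over Ogdh and Dlst fall on both sides of 1.

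The 2 libraries were compared gene by gene by an exact binomial test, two-sided and conditional on the sum of the rounded expected counts. The test asks whether the libraries differ beyond counting error and says nothing of a condition. Of the 9 genes, 6 passed at an adjusted p of 0.05 and 3 did not, where 44.9% of the 10955 genes tested passed. All 9 genes had more than 100 counts in both libraries together, and with that as the minimum 55.9% of 6945 genes passed, a share closer to 6 of 9. Dlst was higher in library 1, where 22.0% of all genes tested were, and Cs, Idh3g, Ogdh, Suclg1 and Mdh2 were lower in library 1, where 22.9% were. Over the 9 genes the median absolute log2 ratio was 0.39, against 0.24 over the 5257 genes that had at least 100 counts in each library.

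Suclg1 had the largest difference, with a log2 ratio of library 1 over library 2 of -1.09 (95% counting interval -1.39 to -0.79) and an adjusted p of 1.46e-12 by the exact test. It was the only one of the 9 genes beyond 2-fold, a bound within which 97.1% of those 5257 genes lay. Ogdh followed at -0.59 (-0.64 to -0.53; adjusted p = 2.19e-104, exact test) and Idh3g at -0.59 (-0.82 to -0.36; adjusted p = 2.12e-06, exact test). Cs was at -0.54 (-0.72 to -0.37) and Mdh2 at -0.37 (-0.43 to -0.30), with adjusted p of 2.87e-09 for Cs and 2.57e-25 for Mdh2 by the exact test. Dlst stood at 0.39 (0.31 to 0.46; adjusted p = 2.26e-24, exact test). The genes with most counts thus had the narrowest intervals and the smallest p, not the largest differences.

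The remaining genes did not pass the exact test. Idh3a had a log2 ratio of 0.08 (-0.20 to 0.36; adjusted p = 0.702, exact test), Sucla2 -0.01 (-0.36 to 0.34; adjusted p = 0.986, exact test) and Fh1 -0.24 (-0.50 to 0.01; adjusted p = 0.115, exact test). These 3 genes had between 131 and 256 counts a library, and the far ends of their intervals, at 0.36, -0.36 and -0.50, lie near or beyond the size of the Mdh2 difference. The spread between the libraries over 9043 genes kept by an expression filter was then added as a common dispersion (coefficient of variation 0.240). With it, edgeR's exact test called 0 of the 9 genes and 1.75% of all genes tested. That dispersion was estimated from the same 2 libraries taken as 1 group, so it already holds the difference under test. Few calls could follow, and the 0 does not show that the libraries are alike. Suclg1 had the lowest p of the 9 genes in that test and did not pass (p = 0.0369, adjusted p = 0.430, edgeR exact test).

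**Figure D4:**
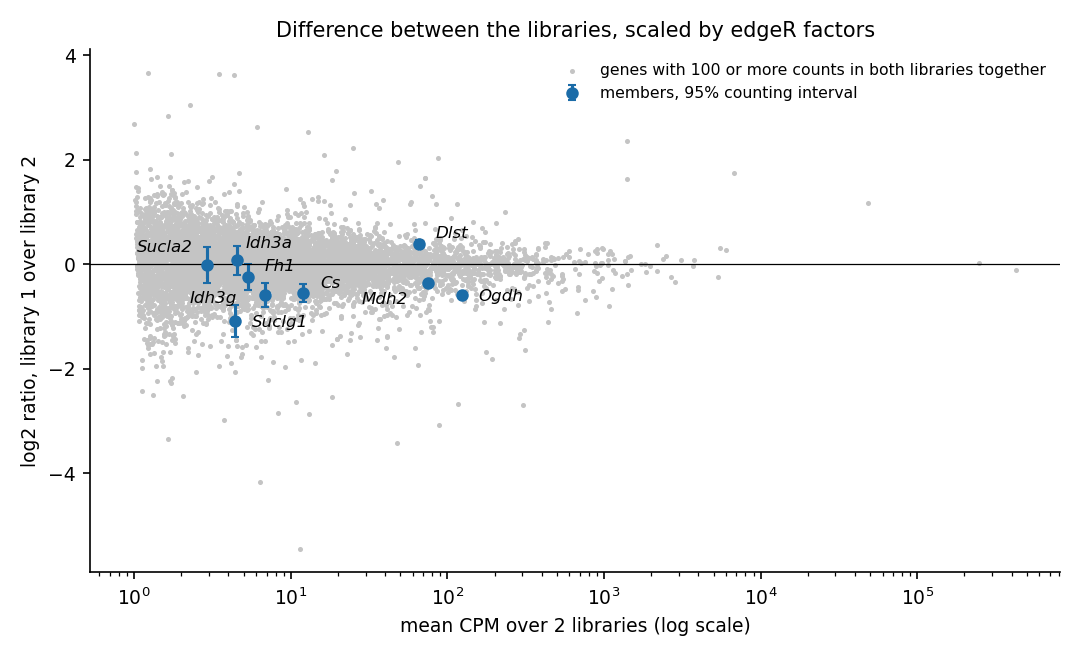
Log2 ratio of library 1 over library 2 against mean CPM on a log axis, for genes whose summed count reached 100 (grey) and the 9 citric acid cycle genes (blue, bars are 95% counting intervals). Suclg1 is lowest at -1.09, Dlst is above 0 at 0.39, and all 9 lie within the grey cloud.

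Of 7 other genes of the cycle, 5 were detected, and the median of the 7 was 1.95 TPM. Idh3b, the remaining isocitrate dehydrogenase subunit, had 9.76 and 7.37 TPM. Dld, the dihydrolipoamide dehydrogenase that completes the 2-oxoglutarate dehydrogenase complex, had 0.43 and 0.44 TPM. It was far below Ogdh and Dlst in both libraries. Of the succinate dehydrogenase subunits, Sdhb had 9.48 and 11.4 TPM, Sdhc 5.01 and 8.15 TPM, Sdha 2.13 and 1.77 TPM, and Sdhd 1.28 and 2.44 TPM. By the exact test 3 of the 7 differed between the libraries, with 1 higher in library 1 (Idh3b) and 2 lower (Sdhc and Sdhd).

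Cytosolic or NADP-dependent forms and paralogs were mostly not detected. Of 8 genes 1 reached 1 TPM in both libraries, the mitochondrial NADP-dependent isocitrate dehydrogenase Idh2, with 2.14 and 4.08 TPM, and Mdh1, the cytosolic malate dehydrogenase, followed with 0.77 and 0.57 TPM. Csl and Dhtkd1 had 0 counts in both libraries. A count of 0 has an upper limit of about 3 expected counts at 95% confidence. That limit equals 0.0586 counts per 1000000 (CPM) in library 1 and 0.0678 in library 2. The 3 genes with enough counts for the exact binomial test, Idh2, Mdh1 and Aco1, did not pass it (adjusted p = 0.166, 0.399 and 0.501).

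Among the routes that feed the cycle, pyruvate entry had 6 of 13 genes detected and a median of 0.82 TPM. It was led by the pyruvate carrier subunit Mpc2, with 46.5 and 47.4 TPM, and the pyruvate dehydrogenase kinase Pdk2, with 3.98 and 7.70 TPM, while Pdk4 had 0 counts. Of the 11 tested, 5 passed the exact test as higher in library 1 and 1 as lower. Over all genes tested these shares were 22.0% and 22.9%. Glutamine use and other refilling routes had 5 of 15 detected and a median of 0.665 TPM, led by the glutamine carrier Slc1a5 (25.6 and 44.2 TPM) and pyruvate carboxylase Pcx (19.1 and 20.5 TPM), with Me3 lowest. Of the 12 tested there, 1 passed the exact test as higher and 3 as lower in library 1.

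Other sources of succinyl-CoA were low. Of the 5 genes for propionyl-CoA and ketone body routes, 1 was detected, the propionyl-CoA carboxylase subunit Pccb at 5.08 and 4.71 TPM. Oxct1 followed at 0.72 and 0.81 TPM, and Mcee was lowest at 0.09 and 0 TPM. Pccb, Oxct1 and Mut were tested and did not pass the exact test (adjusted p = 0.198, 0.0929 and 0.488). Of the 4 genes for lipoylation and complex assembly, Mrps36, a subunit that tethers components of the 2-oxoglutarate dehydrogenase complex, had 25.3 and 21.7 TPM. The lipoic acid synthase gene Lias had 0.48 and 0.46 TPM, and Lipt1 was lowest. Of the 3 tested, 1 (Mrps36) passed the exact test, as higher in library 1.

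The list drawn up around succinyl-CoA use in heme synthesis had 3 of 5 genes detected and a median of 15.1 TPM. Of its genes only Alas2 and Alas1 encode the synthase that uses succinyl-CoA, and the median was the level of Abcb10. Alas2, the erythroid 5-aminolevulinate synthase, had 204 and 270 TPM, and Slc25a38, a mitochondrial glycine carrier, 22.8 and 40.7 TPM. Alas1, the form of other tissues, had 0.29 and 0.49 TPM. Alas2 was thus above all 9 citric acid cycle genes in both libraries. It was lower in library 1 by the exact test, as Slc25a38 was, and 1 further gene of the 5 (Abcb10) was higher.

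**Figure D5:**
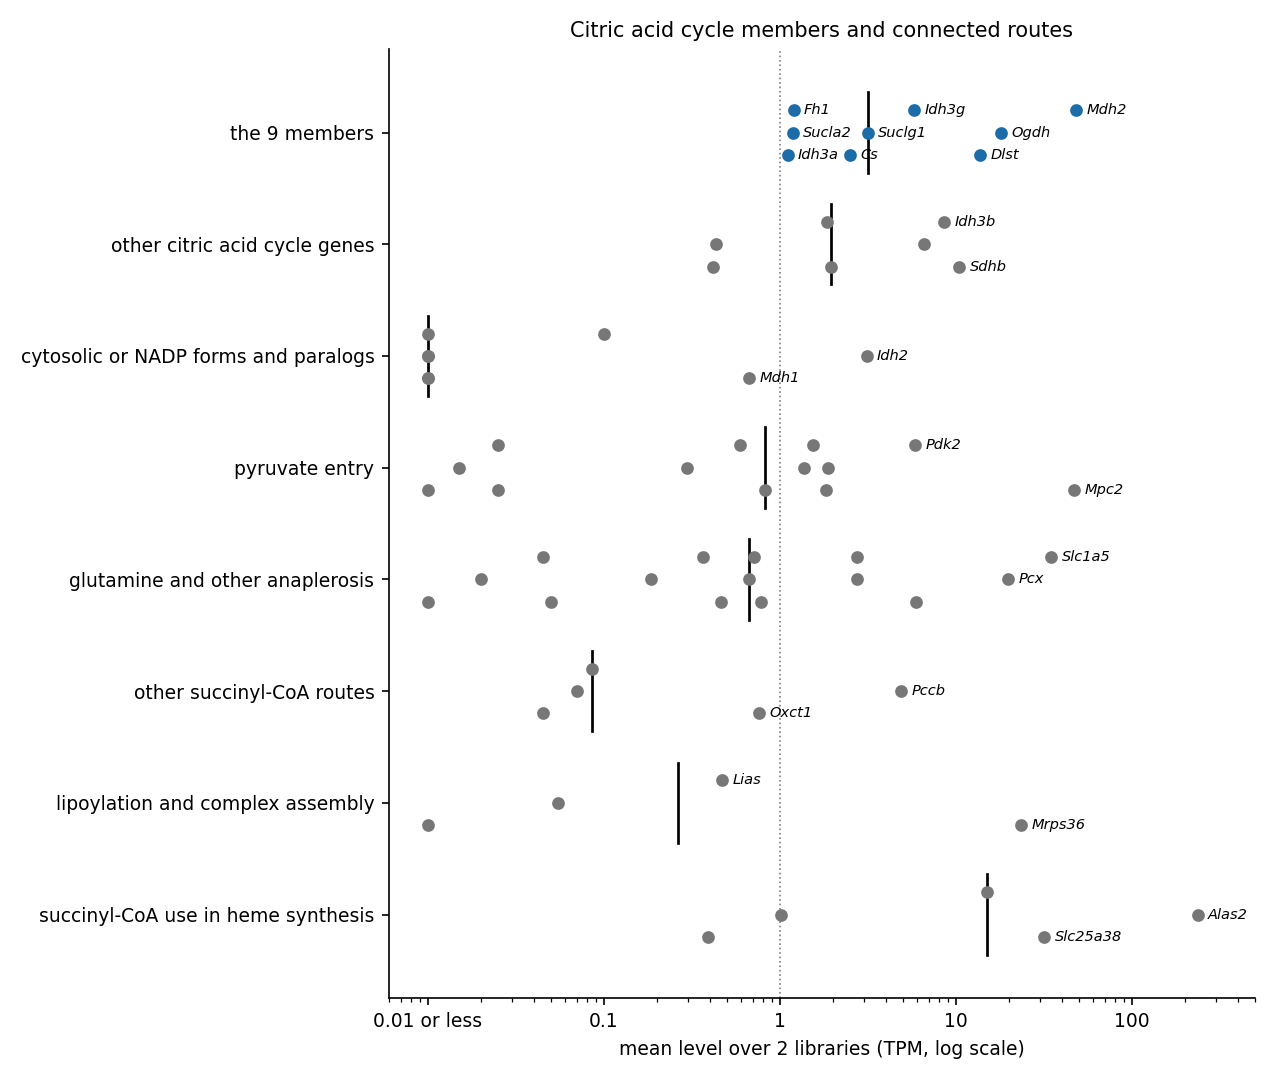
Mean level over 2 libraries in TPM on a log axis for the 9 citric acid cycle genes (blue) and 7 lists of connected genes (grey), with a bar at each list's median and a dotted line at 1 TPM; values of 0.01 or less are drawn at 0.01, where points overlap. The 9 genes all lie above the line, and Alas2 is the highest gene shown.

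The 250 bases before the annotated start were searched on both strands for short words in the RefSeq promoter table (GRCm38.p6), which held 8 of the 9 genes. These 8 genes had 13 promoter entries. A GATA word, AGATAA or TGATAA, was found in 3 of the 13, for Mdh2 and Ogdh, and in 16.6% of all 32851 promoters. The NRF1 word GCATGCGC was found in 2 of the 13, both of Ogdh, and in 2.26% of all promoters. The KLF word CCACACCC, the ERR word CAAGGTCA and the ETS word CCGGAAGT were found in 0 of the 13. Their shares of all promoters were 3.20%, 1.33% and 2.88%. Ogdh has 6 entries in that table, which gives it more chances to hold a word. For each word, the Ogdh entries that hold it overlap and show the same genomic site.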

How the data were processed

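Poly(A) RNA-seq of 2 libraries of 1 group was used. Per the file headers, the authors deposited expected counts (estimates that need not be whole), TPM, posterior mean TPM and FPKM per gene and transcript, and the percent of a gene's TPM held by each transcript. FPKM was not used for results. The build is mm10 with GENCODE M4, per the deposited listing; for the aligner, the quantifier, their versions and the strand setting the sources used here give nothing. Positions, transcript types and sequences came from GENCODE M21 on the same assembly.

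The members and gene lists were chosen with earlier results of these data known. All members and 7 other genes of the cycle are named, and from each further list its 2 highest genes and its lowest one; some genes of the lists are not reported here and are left out of their counts; other named list genes and markers were picked with values seen.

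Expected counts were rounded. Library sizes were scaled by edgeR 4.0.16 factors (R 4.3.3), and genes whose 2 counts summed to at least 10 were tested with an exact conditional binomial test in scipy 1.17.1, with Benjamini-Hochberg adjustment over 10955 genes. Intervals cover counting error only, and all member counts were whole within 0.01. The test was tried on data simulated with counting error alone. That setting leaves out the further spread between the libraries, so it cannot show how the test behaves under that spread. Promoter words were counted in the RefSeq table. Alternatives used DESeq2 1.42.0 size factors, other minima, a common dispersion and other scales of level.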

Additional observations from a re-analysis of the deposited data

How the results depend on the processing

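All 9 genes were also detected in each library alone, and 4 at a minimum of 5 TPM. The median level was 2.09 to 4.24 TPM with 1 library left out, and 21.1 TPM when TPM was rescaled without the globin genes, which multiplies every level alike within a library. The ratios with 1 library left out ranged from 2.80 to 2.90 for Sucla2 to Suclg2, 1.34 to 2.59 for Suclg1 to the beta subunits, 0.176 to 0.208 for Idh3a to Idh3g, 0.565 to 1.09 for Dlst to Ogdh, and 1.48 to 1.62 for Fh1 and Mdh2 to Ogdh and Dlst. By CPM, the mean ratio of Dlst to Ogdh was 0.569 (library 1 0.753, library 2 0.384), and the order of that pair no longer turned between the libraries. The other mean ratios moved by CPM to 1.82, 0.967, 0.695 and 0.422 in the order above. With protein-coding transcripts alone these others moved to 2.71, 0.676, 0.687 and 0.565. With posterior mean TPM, Sucla2 to Suclg2 moved to 3.23. The cause of these moves was not tested.

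The count of genes that differ between the libraries was 6 with DESeq2 size factors, total counts, another minimum count or Bonferroni adjustment. It was 0 with a common dispersion in edgeR's exact test, which adds spread to counting error. That spread was estimated from the same 2 libraries. The share of all genes called was 44.9% with DESeq2 size factors and 44.9% with total counts. It was 29.5% with no minimum count, 55.9% with a minimum of 100 counts and 1.75% with the common dispersion. For the Bonferroni adjustment that share is not given here, so its count of 6 has no background beside it. The log2 ratio of Sucla2 changed sign with DESeq2 size factors, to 0.00091, with neither value past the threshold. Summing protein-coding transcripts alone was chosen after seeing the data where it concerns the median, the count detected and the single levels. No paired analysis was possible because there is 1 group. With 2 libraries an SD has 1 degree of freedom, and genes near 1 TPM rest on 131 to 256 counts a library.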

Other observations

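The level of the 9 genes, as TPM over all transcripts, went with the GC content of their transcripts. The Spearman correlation was 0.883 across these 9 genes, against 0.227 across the 4296 detected protein-coding genes. The order of the 9 genes changed with protein-coding transcripts alone and by CPM, and the correlation was not computed on those scales. The genes share both libraries and their depth and are not independent replicates. Median GC content was 49.3% for the 9 genes and 53.3% for the detected genes. The correlation of level with transcript length over the 9 genes was 0.0333. Why level and GC content go together was not tested.

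Components of the 2-oxoglutarate dehydrogenase complex differed widely in level, with Mrps36 at 23.5 ± 2.50 TPM, Ogdh and Dlst at 18.0 ± 6.28 and 13.7 ± 1.51 TPM, and Dld at 0.435 ± 0.00707 TPM (SD, n = 2). Dld also serves the pyruvate dehydrogenase complex, where Dlat had 1.37 ± 0.0424 TPM.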
